A study of Caenorhabditis elegans with 11 samples.

Results

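The comparison described here sets 3 RNA-seq libraries of a C. elegans line called 2KR against 2 libraries of N2, the laboratory wild type, which makes 5 of the 11 libraries of the series. The 2KR line carries daf-16(mu86), a deletion allele of the endogenous gene, and the integrated array iqIs85, in which the daf-16 promoter drives DAF-16 fused to GFP with lysines K248 and K253 changed to arginine. The WT line, with 3 libraries, has the same deletion and the array iqIs79, which carries the fusion without the substitutions. Both arrays also carry pRF4, a marker plasmid with a rol-6 allele that makes worms roll. Each transgene was represented by 1 line. The deletion, the tagged transgene, the marker and the site of integration therefore all differ between 2KR and N2, and the substitutions cannot be told apart from any other difference between the 2KR and WT lines. All worms were day 1 adults grown at 20 °C on agar with E. coli OP50, about 1000 per library, and RNA came from the whole body. The labels speak of biological repeats, and beyond that nothing says whether the libraries of a group came from separate cultures, so the p-values measure the spread between these libraries. The 3 libraries of a further line, 4KR, were not used here.

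DAF-16 is the worm FOXO transcription factor at the end of the insulin/IGF-1 pathway. When the insulin receptor DAF-2 is active, AKT kinases phosphorylate DAF-16 and hold it in the cytoplasm. When signalling falls, it enters the nucleus and activates genes for stress resistance, metabolism and immunity, with intestine, neurons, hypodermis and muscle among its sites of action. Lysines of FOXO proteins can be acetylated, and an arginine keeps the positive charge of a lysine but cannot be acetylated. Genes reported as activated by DAF-16 include sod-3 and mtl-1, and genes reported as lower when it is active include several of the dod group.

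The 8 libraries of N2, WT and 2KR held 21947014 to 30810301 counts each, and their log2 levels correlated at 0.994 to 0.999 over the 28 pairs. Transcripts that mark intestine, hypodermis, muscle, neurons, germline, sperm, oocytes and somatic gonad were all present in every library, as in a whole adult hermaphrodite. Levels are given in CPM, each library's counts scaled to the same fixed total, after TMM scaling, which adjusts for differences in library make-up. A gene was called when its adjusted p in edgeR's quasi-likelihood test, with Benjamini-Hochberg adjustment over the 14361 genes tested, was under 0.05.

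The levels of 2 genes tied to the genotypes were looked at. Counts per gene do not show the deletion, the fusion or the substitutions. rol-6, a cuticle collagen gene carried by the marker plasmid, had 2 and 3 counts in the N2 libraries and 12511 counts over the 2KR libraries. That is 1273 times the N2 level, with a 95% exact Poisson interval of 545 to 3921 that covers counting error only. The ratio for WT against N2 was 577 (247 to 1777). Between the lines, rol-6 was 2.22-fold higher in 2KR than in WT (log2 1.15, edgeR quasi-likelihood, adjusted p = 0.00179). It stood at 122, 163 and 153 CPM in 2KR and at 57.8, 73.1 and 66.6 CPM in WT. daf-16 itself stood at 160 and 145 CPM in N2, at 214, 289 and 234 CPM in 2KR and at 400, 452 and 400 CPM in WT. The groups did not overlap, 2KR lying above N2 and below WT. The log2 fold change of daf-16 was 0.69 ± 0.12 (SE) in 2KR against N2 (edgeR quasi-likelihood, adjusted p = 0.00734) and -0.77 in 2KR against WT (adjusted p = 0.0134). Thus the amounts of daf-16 and rol-6 RNA differed between the lines beside the substitutions. Their part in the differences below was not tested. Without N2 replicate 1 or 2 the call of daf-16 in 2KR against N2 was lost.

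In 2KR against N2, 1114 genes were called, 7.76% of those tested. Of these, 540 were higher (3.76%) and 574 lower (4%) in 2KR. A change of at least 2-fold was seen in 405 of them (2.82% of the genes tested), 154 higher and 251 lower. The median log2 fold change over all genes was 0.007 after TMM scaling, which centres it by construction. N2 had only 2 libraries, and the count fell to 162 without N2 replicate 1 and to 255 without N2 replicate 2. It was 641 without 2KR replicate 2. In WT against N2, 584 genes were called (4.07%), 267 of them higher (1.86%) and 317 lower (2.21%) in WT. In 2KR against WT 35 genes were called (0.244%), 11 higher (0.0766%) and 24 lower (0.167%) in 2KR. The last count was 124 without WT replicate 2, and it was as low as 7 when 2KR replicate 1 was left out.

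The called genes were sorted by what the WT line did, using these same tests, so the values of the members of each class are descriptions. In all, 20 genes (0.139% of those tested) lay apart in 2KR, meaning that they were called against N2 and against WT in the same direction while WT was not called against N2 and lay within 0.5 log2 units of it. A further 369 genes (2.57%), here called the intermediate class, had WT within the same limit of N2, but the lines were not called different from each other. Both lines were called in the same direction for 484 genes (3.37%), and 241 genes met none of these rules. As shares of the 1114 called genes these classes were 1.8%, 33.1%, 43.4% and 21.6%. The first set was sensitive to single libraries: it held 71 genes without WT replicate 2 and 5 genes without N2 replicate 1, N2 replicate 2 or 2KR replicate 1. It ranged from 8 to 13 genes without any one of the others. Same-numbered WT and 2KR libraries deviated together from their group means, and the fit behind these counts has no term for this pairing. With the title numbers of all 8 libraries as a block, 81 genes lay apart and 221 were called in 2KR against WT. This block also ties the N2 libraries to the other groups by number, a pairing that was not established. N2 replicate 2 has the file tag 6-6, which is the tag of replicate 3 in WT and 2KR. The tag of replicate 2 in those lines, 3, has no N2 library. With the file tags as a block the counts were 149 and 319.

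**Figure D1:**
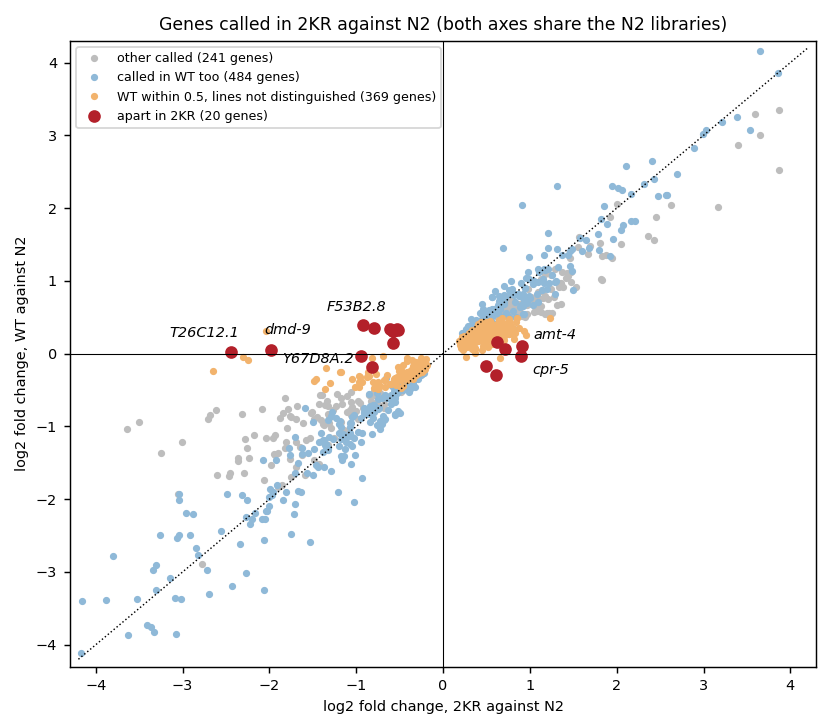
Log2 fold changes of the genes called in 2KR against N2, with 2KR against N2 on the horizontal axis and WT against N2 on the vertical axis; each point is a gene, and the dotted line marks equal change. The N2 libraries enter both axes, so the spread along the diagonal is no evidence of likeness, and 34 of the 1114 genes lie beyond 4.2 on one axis or the other, Y67D8A.9 among them, and are not drawn. The genes apart in 2KR lie close to the horizontal axis, T26C12.1 and dmd-9 farthest to the left.

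The largest decrease among the genes apart in 2KR was that of T26C12.1, whose product resembles thiamine-dependent acetolactate synthases. Its levels were 153 and 136 CPM in N2, 157, 144 and 140 CPM in WT, and 27.5, 25.0 and 27.0 CPM in 2KR. Every 2KR library lay far below every other library, and N2 and WT overlapped. The gene was 5.44-fold lower in 2KR than in N2, a log2 fold change of -2.44 ± 0.07 (edgeR quasi-likelihood, adjusted p = 5.44e-08), and 2KR was below WT by a similar amount (-2.47, adjusted p = 7.48e-08).

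The second was dmd-9, which encodes a DM-domain protein of the family that holds the sex-determination regulators doublesex and MAB-3. It stood at 11.4 and 10.4 CPM in N2, at 10.8, 12.5 and 10.6 CPM in WT, and at 2.91, 2.74 and 2.63 CPM in 2KR. The 2KR libraries were again well below all others. The change against N2 was 3.94-fold, or -1.98 ± 0.13 on the log2 scale (edgeR quasi-likelihood, adjusted p = 1.99e-05).

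The third, Y67D8A.2, had 97.0 and 97.4 CPM in N2, 103, 87.8 and 95.2 CPM in WT, and 53, 48.3 and 50.7 CPM in 2KR. WT scattered around the N2 values and 2KR lay near the middle between them and zero. Its log2 fold change against N2 was -0.94 ± 0.07 (edgeR quasi-likelihood, adjusted p = 7.19e-05).

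These 3 genes are neighbours on chromosome IV. In the Ensembl annotation of WBcel235, Y67D8A.2 spans IV:3222440-3252604 on the plus strand, dmd-9 lies at IV:3253261-3254543 on the minus strand and T26C12.1 at IV:3258910-3263489 on the plus strand, and 41 kb holds all of them. Inside Y67D8A.2, on the opposite strand, lies the small non-coding RNA gene Y67D8A.9 (IV:3231685-3231763), which had 15 to 17 counts in each 2KR library, 49 in all, and 0 in every N2 and WT library. Set against a floor of 3 counts over the group, that is at least 8.31-fold higher than N2 and at least 15.6-fold higher than WT. Y67D8A.9 passed the count filter only through its 2KR libraries, so its calls are descriptions and no support is drawn from them. The sources used here do not say whether the authors counted by strand, and reads of this gene and of its host then cannot be told apart.

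The change did not extend evenly along the chromosome. Upstream, Y67D8A.10 and M4.1 were not called, with log2 fold changes in 2KR against N2 of 0.32 and -0.22 (edgeR quasi-likelihood, adjusted p = 0.128 and 0.0533). Downstream, the C-type lectin gene clec-173 was at 0.11 (adjusted p = 0.697) and T26C12.3 at -1.07 (adjusted p = 0.0812). Beyond these, gcy-23, a receptor guanylyl cyclase of the thermosensory AFD neurons, had 36 and 29 counts in N2, 18, 19 and 19 in WT, and 12, 10 and 6 in 2KR. It was lower in 2KR by 2.18 log2 units (adjusted p = 0.00329), but WT was between the other groups at -1.12 (adjusted p = 0.0561). W08E12.8 followed the same order at very low counts (15 and 9 in N2, 2 to 3 in 2KR), with a log2 fold change of -2.69 (adjusted p = 0.00895) and of -0.85 in WT. The stretch from Y67D8A.2 to W08E12.8 measures 72.2 kb, and the next gene, W08E12.7, was at -0.05. Both gcy-23 and W08E12.8 were looked up after the 3 neighbours had been seen. Chromosome IV held 7 of the 13 genes apart in 2KR that have a position, and 2400 of the 14361 genes tested. Of the 7, Y67D8A.2, Y67D8A.9, dmd-9 and T26C12.1 lie within 41 kb and are not separate places. Called genes made up 8.96% of those tested on IV, against 9.28% on V, 8.09% on II and less on the others, down to 5.34% on III.

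**Figure D2:**
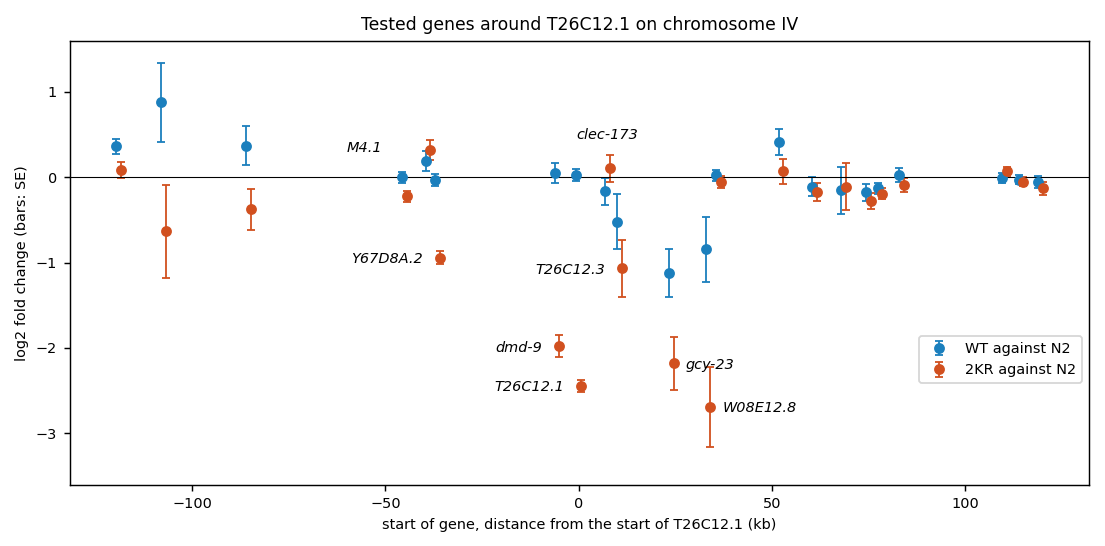
Log2 fold changes (bars: SE) of the tested genes within 120 kb of T26C12.1, plotted by the distance of each gene's start from that of T26C12.1, for 2KR against N2 and WT against N2; Y67D8A.9, at 0 in 5 libraries, is left out. Y67D8A.2, dmd-9 and T26C12.1 are low in 2KR with WT at zero, clec-173 is near zero in both lines, and both lines are below zero at gcy-23 and W08E12.8.

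Of the genes apart in 2KR that rose, cpr-5 had the smallest adjusted p. The gene (V:1132598-1134036, minus strand) encodes a cathepsin B-like cysteine protease of the gut. It had 115 and 125 CPM in N2, 126, 112 and 116 CPM in WT, and 233, 228 and 212 CPM in 2KR. The WT values overlapped those of N2, and 2KR was 1.87-fold above N2 (log2 0.90 ± 0.07, edgeR quasi-likelihood, adjusted p = 9.67e-05) and above WT by 0.93 (adjusted p = 1.06e-04). The neighbouring cathepsin B-like gene cpr-8 rose by 0.81 (adjusted p = 0.0253), with WT at 0.20. Its 2KR libraries, at 14.3, 10.6 and 13.9 CPM, were above the N2 libraries (6.73 and 7.98 CPM) and also above the highest WT library (9.99 CPM), but the difference between the lines was not called (adjusted p = 0.294). The call of cpr-8 against N2 was lost without either N2 library, 2KR replicate 1 or 2KR replicate 3.

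Transporter genes made up further increases. amt-4, an ammonium transporter gene, had 15.4 and 14.8 CPM in N2, 14.3, 19.0 and 15.4 CPM in WT, and 25.3, 29.2 and 31.0 CPM in 2KR, a log2 fold change of 0.91 ± 0.13 (edgeR quasi-likelihood, adjusted p = 0.00388). The related rhr-1, of the Rhesus family of ammonium transport proteins, rose by 0.47 (adjusted p = 0.00425), with WT between at 0.19. amt-1, beside amt-4 on the chromosome, was at 1.05 but its levels scattered (1.17 and 1.83 CPM in N2, 2.22, 5.08 and 2.06 CPM in 2KR). It was not called (adjusted p = 0.142), though it was with the title numbers as a replicate block (1.18, adjusted p = 0.0176). F58G6.3 encodes a protein of the CTR family of copper transporters. It was at 7.71 and 7.80 CPM in N2, at 8.04, 8.40 and 7.79 CPM in WT, and at 11.2, 13.5 and 13.6 CPM in 2KR, so 2KR was above all other libraries (log2 0.72 ± 0.12, adjusted p = 0.00694). The genes on either side of it belong to the same family and were also higher in 2KR: F58G6.9 by 0.93 (adjusted p = 0.0295) and F58G6.7 by 0.70 (adjusted p = 0.00827). In WT they were at 0.31 and 0.19 and not called. Reads from close relatives may be shared among the 3 genes, which makes their separate values uncertain.

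Among metabolic enzymes, R12C12.1 (gldc-1 in the reference table), the glycine decarboxylase of the glycine cleavage system, had 84.8 and 85.5 CPM in N2, 91.5, 108 and 87.3 CPM in WT, and 129, 136 and 127 CPM in 2KR. All 2KR libraries exceeded all WT libraries, the highest of which was replicate 2. Its log2 fold change was 0.62 ± 0.08 against N2 and 0.45 against WT (edgeR quasi-likelihood, adjusted p = 0.0026 and 0.0421). acox-2 (now acox-1.2), of the peroxisomal acyl-CoA oxidases that shorten the side chains of ascaroside pheromones, had 13.5 and 14.7 CPM in N2, 11.4, 14.2 and 12 CPM in WT, and 18.5, 20.3 and 20.8 CPM in 2KR. It was higher in 2KR by 0.50 ± 0.11 (adjusted p = 0.0275). acox-1, whose gene ends 53 bp from it, rose by 0.41 (adjusted p = 0.0319), while acox-3 on the other side was at -0.17 (adjusted p = 0.452). F22E5.1 was the last named gene that rose, by 0.60 ± 0.15 (adjusted p = 0.04), from 5.65 and 4.46 CPM in N2 to 7.91, 8.36 and 6.78 CPM in 2KR, with WT at 3.94 to 4.39 CPM.

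Of the genes that were lower in 2KR and lie elsewhere, T05A12.4 (IV:6887948-6897783) had 72.1 and 68.7 CPM in N2, 82.5, 75.9 and 76.5 CPM in WT, and 49.8, 43.8 and 48.3 CPM in 2KR. Its WT libraries were all above N2 and its 2KR libraries all below, with log2 fold changes of 0.15 and -0.57 ± 0.07 (edgeR quasi-likelihood, adjusted p = 0.262 and 0.0013). F53B2.8 went the same ways: it had 8.69 and 8.61 CPM in N2, 12.9, 8.92 and 12.2 CPM in WT, and 4.31, 4.27 and 5.11 CPM in 2KR, a change of -0.92 ± 0.17 against N2 (adjusted p = 0.011) and of -1.31 against WT (adjusted p = 0.00659).

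dod-3, named for being downstream of DAF-16, had 9.77 and 10.7 CPM in N2, 15.4, 9.74 and 14.1 CPM in WT, and 6.53, 5.77 and 5.29 CPM in 2KR. WT replicates 1 and 3 were above N2, WT replicate 2 was level with it, and all 2KR libraries were lower. The log2 fold change was -0.80 ± 0.19 against N2 and -1.16 against WT (edgeR quasi-likelihood, adjusted p = 0.0302 and 0.0213). dod-3 and F53B2.8 were the named members nearest to the limit of 0.5, with WT at 0.36 and 0.39.

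The remaining 7 genes apart in 2KR had no name in the files and no position in the annotation. Of these, 6, WBGene00019308 among them, held almost the same counts as one another in each library (125 to 283) and so may share reads. They were lower in 2KR by 0.52 to 0.61 log2 units, and their WT values lay 0.30 to 0.34 above N2. The seventh, WBGene00021954, had 19.1 and 18.8 CPM in N2, 15.5 to 18.5 CPM in WT and 9.66 to 12.1 CPM in 2KR.

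cpr-5, T05A12.4, T26C12.1, Y67D8A.2 and dmd-9 stayed apart in 2KR in each of the 8 fits that left out 1 library. R12C12.1 was called against N2 in all 8, but against WT in 1. amt-4, acox-2, F58G6.3 and dod-3 were likewise called against WT in 1 of the 8 fits, with adjusted p of at most 0.15, 0.205, 0.25 and 0.154 in edgeR's quasi-likelihood test. F53B2.8 was called against WT in 7, and F22E5.1 and Y67D8A.9 in 3. Against N2, the call of amt-4, F53B2.8, F58G6.3 and Y67D8A.9 held in 6 of the 8 fits, that of acox-2 and dod-3 in 4 and that of F22E5.1 in 2. In the pairs of N2 and 2KR libraries whose files share a repeat tag (1 pair for each of 2 tags), the sign was that of the fit for all 1114 called genes, the 20 among them, but the genes were called from these same libraries, so nothing is read from it.

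**Figure D3:**
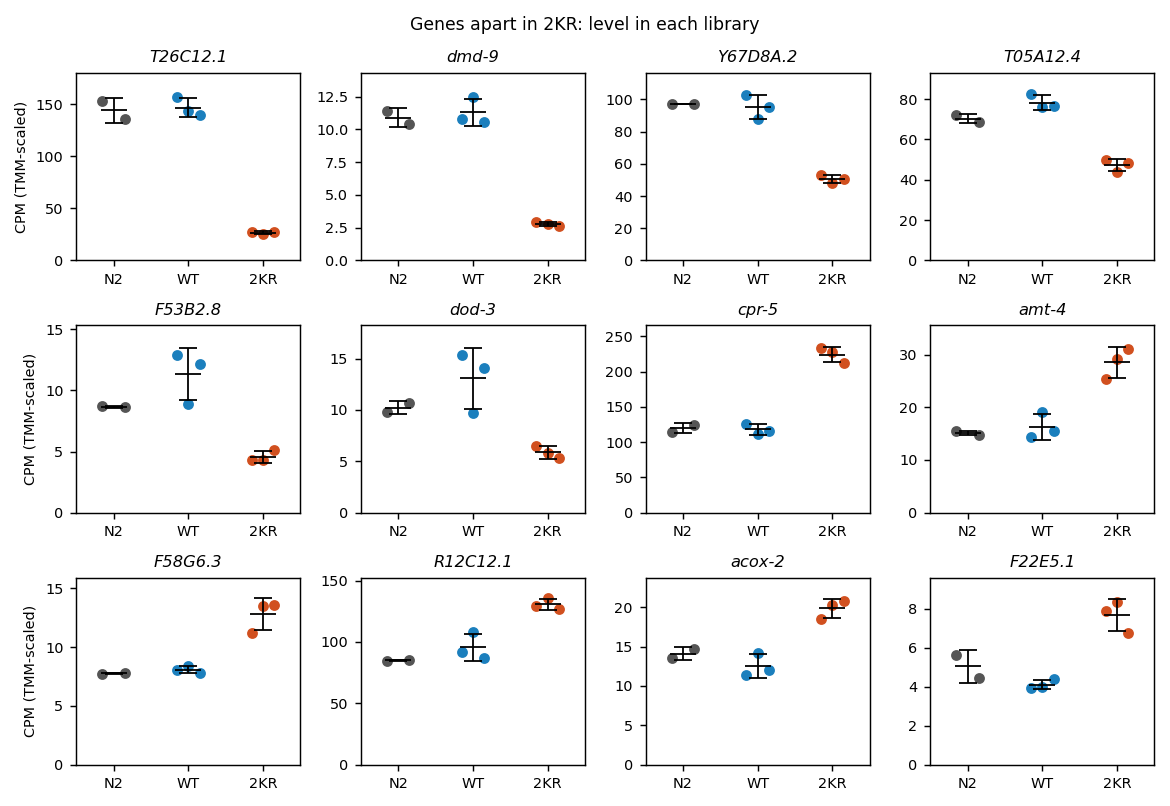
Level in CPM (TMM-scaled, linear axis from 0) of the 12 named genes apart in 2KR other than Y67D8A.9, in each library of N2 (2), WT (3) and 2KR (3); points are libraries, and the horizontal marks and bars are the mean and SD. The 2KR points are below all others in the first 6 panels and above all others in the last 6. The genes were chosen by their calls in 2KR against both other groups, so nothing is read from this separation.

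One gene missed the set only because WT was called too. pho-1, an intestinal acid phosphatase gene, had 29.0 and 29.7 CPM in N2, 37.1, 39.5 and 35.0 CPM in WT, and 48.7, 52.6 and 53.3 CPM in 2KR. The 3 groups were stacked without overlap. 2KR and N2 alone do not overlap in 43.8% of all tested genes, and the share for 3 stacked groups was not counted. In edgeR's quasi-likelihood test pho-1 was higher by 0.81 in 2KR (adjusted p = 3.29e-04) and by 0.34 in WT (adjusted p = 0.0351), and 2KR exceeded WT by 0.47 (adjusted p = 0.0206).

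For the 369 genes with WT within 0.5 of N2 but no called difference between the lines, 187 were higher and 182 lower in 2KR. In 359 of them the WT fold change lay between zero and that of 2KR, and the median ratio of the WT change to the 2KR change was 0.623. The median size of the change was 0.39 log2 units in 2KR and 0.242 in WT. WT had gone less than 33.3% of the way in 38 genes, from 33.3% to 66.7% in 179 and over 66.7% in 152. Of the 38, 3 lay on the opposite side of N2. Both changes are measured from the same 2 N2 libraries and the genes were chosen by their call against N2, so the ratio and these counts are descriptions from which nothing is read about WT.

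Single WT libraries differed in how far they lay from N2 over these genes. On a scale where the N2 mean is 0 and the 2KR mean is 1, the median position over the 369 genes was 0.48 for WT replicate 1, 0.801 for WT replicate 2 and 0.563 for WT replicate 3. Over the 484 genes called in both lines the same libraries stood at 0.93, 1.033 and 0.958, and over the 20 genes apart in 2KR at -0.485, -0.075 and -0.264. The unnamed genes that may share reads count separately among the 20, with WT above N2 and 2KR below it, and so weigh on these medians. WT replicate 2 was nearest to 2KR in all 3 classes. It shares its repeat tag with 2KR replicate 2, and the 2 libraries deviated together from their group means (correlation 0.381). N2 has no library of that tag. Fits without WT replicate 2, here and for single genes below, thus keep this repeat in 2KR alone. Without WT replicate 2, 71 genes lay apart in 2KR, 37 higher and 34 lower. Of these, 17 were already among the 20 and 29 came from the 369. Another 5 came from the other called genes, and 20 had not been called against N2.

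**Figure D4:**
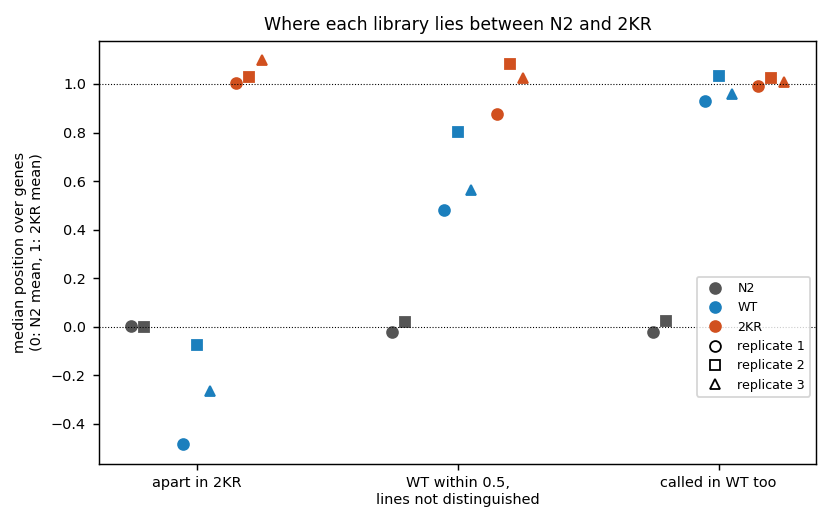
Median position of each library between the N2 mean (0) and the 2KR mean (1) over the genes of 3 classes: 20 apart in 2KR, 369 with WT within 0.5 of N2 and the lines not called different, and 484 called in both lines. The N2 and 2KR means define the scale, so only the WT points are free, and WT replicate 2 (blue square) is the WT library nearest to 2KR in every class. The unnamed genes that may share reads count separately among the 20.

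Of the intermediate class, pept-1, the main intestinal transporter of di- and tripeptides, had 72.4 and 68.5 CPM in N2, 79.4, 104 and 72.0 CPM in WT, and 121, 119 and 117 CPM in 2KR. WT replicates 1 and 3 were near N2 and WT replicate 2 was most of the way to 2KR. pept-1 rose by 0.76 ± 0.12 against N2 (edgeR quasi-likelihood, adjusted p = 0.00668), and the difference between the lines was called only without WT replicate 2 (adjusted p = 0.191 with it and 0.00149 without it). nlp-40, a neuropeptide gene of the intestine that times defecation, had 105 and 98.1 CPM in N2, 90.4, 111 and 90.8 CPM in WT, and 136, 193 and 149 CPM in 2KR. Its WT libraries straddled N2, with a log2 fold change of -0.06 on the other side of N2 from 2KR, and its 2KR libraries were all higher (0.65 ± 0.14, adjusted p = 0.0232; between the lines 0.71, adjusted p = 0.0622, and 0.0197 without WT replicate 2). The calls of pept-1 and nlp-40 against N2 did not hold without either N2 library.

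Lower genes of the same class included catp-3, a cation-transporting P-type ATPase gene, with 21.8 and 21.0 CPM in N2, 19.3, 10.2 and 19.1 CPM in WT, and 8.43, 7.89 and 9.63 CPM in 2KR. WT replicates 1 and 3 were just under N2 and WT replicate 2 just over 2KR. Its change was -1.30 ± 0.23 (edgeR quasi-likelihood, adjusted p = 0.0088). nlp-29, an epidermal antimicrobial peptide gene, showed the same spread: 14.3 and 12.3 CPM in N2, 11.8, 5.21 and 11.4 CPM in WT, and 5.42, 3.87 and 6.18 CPM in 2KR (-1.36 ± 0.30, adjusted p = 0.0256). xbp-1, the transcription factor of the endoplasmic reticulum stress response, fell by 0.33, from 235 and 234 CPM in N2 to 188, 181 and 190 CPM in 2KR (adjusted p = 0.0107), with WT at 223, 198 and 219 CPM. The calls of nlp-29 and xbp-1 were lost without either N2 library, and that of nlp-29 also without 2KR replicate 1 or 2. catp-3 and nlp-40 were looked at after their values had been seen.

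Genes reported as activated by DAF-16 were lower in 2KR where they were called. Of 39 tested members of this list, 11 fell and none rose (28.2%, against 7.76% of all genes), and the median log2 fold change was -0.229. In WT against N2 4 members fell and 1 rose, with a median of -0.146, and these comparisons share the N2 libraries. The summed level of the 39 genes was 3798 and 3553 CPM in N2, 2975, 2923 and 3170 CPM in WT, and 2676, 2804 and 2803 CPM in 2KR. Both lines thus lay below N2 in the sum, and 2KR below WT. Abundant members weigh most in it, so the sum does not stand for the list as a whole. In N2, WT and 2KR the means of sip-1 were 1326, 890 and 832 CPM. Those of lea-1 were 376, 215 and 203 CPM. Without N2 replicate 1 only 3 members were called lower, without N2 replicate 2 or 2KR replicate 3 only 7 and without 2KR replicate 1 or 2 only 5.

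Of these 11 genes, dod-3 lay apart in 2KR, 5 were of the intermediate class, 4 fell in both lines, and cpi-1, a cystatin gene, fell by 0.80 (adjusted p = 0.0389) with WT at -0.57. The 4 that fell in both lines were lea-1, a desiccation-tolerance protein gene, at -0.89 ± 0.06; thn-2, a thaumatin-like gene, at -0.91 ± 0.08; sip-1, a small heat shock protein gene, at -0.67 ± 0.06; and fat-5, a delta-9 desaturase gene, at -0.70 ± 0.13. lea-1 was at 391 and 360 CPM in N2, at 208 to 224 CPM in WT and at 197 to 208 CPM in 2KR (edgeR quasi-likelihood, adjusted p = 2.33e-05), and the lines were not called different (adjusted p = 0.888). The metallothionein gene mtl-1 was lower in 2KR by 1.19 ± 0.26 (adjusted p = 0.0233), but its N2 libraries differed from each other (32.3 and 16.4 CPM, against 18.9 to 22.3 CPM in WT and 7.81 to 12.2 CPM in 2KR), and it was not called without N2 replicate 1, 2KR replicate 1 or 2KR replicate 3 (adjusted p up to 0.277). nnt-1, the mitochondrial nicotinamide nucleotide transhydrogenase, fell by 0.69 (adjusted p = 0.0402) with WT at -0.04, and it was called in only 8 of 15 alternative fits.

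Well-known DAF-16 targets without a call in the fit of all 8 libraries are part of the same list. sod-3, a mitochondrial superoxide dismutase gene, was at 3.22 and 2.94 CPM in N2 and at 2.94, 2.92 and 3.94 CPM in 2KR, so the groups overlapped (0.08 ± 0.18, edgeR quasi-likelihood, adjusted p = 0.804). In WT all 3 libraries were above N2 (4.42, 4.01 and 4.60 CPM), but neither WT against N2 nor 2KR against WT was called (adjusted p = 0.17 and 0.625). hsp-12.6, which encodes a small heat shock protein, was at -0.16 ± 0.41 with at most 1.05 CPM in any library. The lysozyme gene lys-7 went up in WT (0.87, adjusted p = 0.0151) and was at 0.58 in 2KR (adjusted p = 0.052). It lay at the edge of the threshold: 7 of 15 alternative fits called it, with adjusted p from 0.000713 to 0.238.

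Of 23 tested genes reported as lower with DAF-16 active, 5 rose and 1 fell in 2KR against N2 (26.1%, against 7.76% of all genes). The median was -0.181, so the median and the balance of calls differ in sign. In WT 1 rose and 4 fell. The genes that rose were pept-1, the lipid-binding protein gene lbp-6 (0.52), and dod-24 (1.21), dod-17 (0.78) and F55G11.2 (1.14), which encode CUB-like domain proteins. dod-24 rose alike in WT (1.16). fat-7, a delta-9 desaturase gene, fell by 2.08 in 2KR and by 2.28 in WT. dod-22 was at -0.18 in 2KR (edgeR quasi-likelihood, adjusted p = 0.616), while its WT libraries, at 4.13, 3.11 and 4.53 CPM, were all above N2 (2.38 and 2.27 CPM; 0.75, adjusted p = 0.0744). Without N2 replicate 1 or 2 at most 1 of the 23 genes was called, while 3 fell without WT replicate 2 and 6 without 2KR replicate 3.

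Markers of the intestine were higher in 2KR where they were called. Of 24 tested, 6 rose and none fell (25%, against 3.76% of all genes higher), with a median of 0.158 (0.047 in WT). Beside cpr-5, pho-1 and pept-1 these were act-5, the actin of intestinal microvilli (0.43, adjusted p = 0.00506 in edgeR's quasi-likelihood test), the intestinal intermediate filament gene ifb-2 (0.59, adjusted p = 0.00156) and the proton exchanger gene nhx-2 (0.47). act-5 was equally high in WT (0.44), where 3 of the markers were called higher and 1 lower. The summed level of the 24 genes ran from 5449 to 5702 CPM in N2, from 5189 to 5861 CPM in WT and from 5826 to 6143 CPM in 2KR. In whole worms, more cells of a tissue and more RNA per cell cannot be told apart. Without N2 replicate 1 or 2 the count was 3 or 4. The vitellogenins, yolk protein genes that are also made by the intestine, gave no call among 6, with a median of -0.041 and a sum of 94410 and 98016 CPM in N2 and of 92340 to 97681 CPM in 2KR.

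Digestive proteases followed cpr-5 in part. Of 23 tested genes for cathepsin B-like and aspartyl proteases, 4 rose and none fell (17.4%, against 3.76% of all genes higher): cpr-5, cpr-8, cpr-3 (1.05 ± 0.17, edgeR quasi-likelihood, adjusted p = 0.006) and asp-13 (1.30 ± 0.29, adjusted p = 0.0253). cpr-3 was at 5.33 and 5.49 CPM in N2, at 7.72 to 9.89 CPM in WT and at 9.24 to 13.1 CPM in 2KR, so that WT and 2KR overlapped. The median over the list was 0.13, and 1 member was called without either N2 library.

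Among 40 tested genes of fat metabolism, 5 rose and 2 fell (17.5%, against 7.76% of all genes), with a median of -0.013. Of the genes that rose, 3 encode fatty acid elongases: elo-5 (0.95 ± 0.14, edgeR quasi-likelihood, adjusted p = 0.00424), which makes monomethyl branched-chain fatty acids, elo-6 (0.70) and elo-2 (0.64 ± 0.11, adjusted p = 0.00929). elo-5 had 106 and 115 CPM in N2, 137, 192 and 142 CPM in WT, and 190, 212 and 237 CPM in 2KR. WT replicate 2 reached the lowest 2KR library. The other 2 that rose were acox-1 and lbp-6, and the 2 that fell were the desaturase genes fat-5 and fat-7. No member was called without N2 replicate 1, and 1 without N2 replicate 2, while without 2KR replicate 3 the count was 3 higher and 4 lower.

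Conjugating enzymes moved in both directions. Of 60 tested UDP-glucuronosyltransferase genes 9 rose and 6 fell (25%, against 7.76% of all genes), but without either N2 library 3 rose and 1 fell. ugt-63 rose by 1.50 ± 0.15, from 9.39 and 11.1 CPM in N2 to 26.1, 30.3 and 30.6 CPM in 2KR (edgeR quasi-likelihood, adjusted p = 5.80e-04), with WT between at 16, 22.6 and 17.9 CPM. ugt-64 rose by 0.82 in 2KR and by 0.81 in WT, and ugt-25 fell by 1.17 in both. Of 35 glutathione S-transferase genes 5 rose and 3 fell (22.9%), none of them past 1.31 in size, and none was called without either N2 library. Of 58 cytochrome P450 genes 3 rose and 3 fell (10.3%), and without either N2 library 1 rose and at most 2 fell.

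Immune genes were likewise mixed. Of 25 tested genes of the PMK-1 p38 pathway 3 rose and 6 fell (36%, against 7.76% of all genes). Among the 6 are the p38 kinase genes themselves, pmk-1, pmk-2 and pmk-3, which lie side by side on chromosome IV with islo-1 and faah-2, also lower. pmk-2 was at 32.3 and 29.2 CPM in N2, at 6.16 to 6.70 CPM in WT and at 6.18 to 6.47 CPM in 2KR, a change of -2.27 ± 0.09 (edgeR quasi-likelihood, adjusted p = 4.55e-07) that WT shared (-2.24). pmk-3 was at -2.20 and pmk-1 at -1.38, with like values in WT (-2.27 and -1.35). In this list 1 gene rose and 3 fell without N2 replicate 1, and 5 fell without N2 replicate 2. Of 97 C-type lectin genes 8 rose and 10 fell (18.6%), and without either N2 library 2 rose and at most 3 fell. The invertebrate lysozyme genes ilys-2 and ilys-3, also neighbours, fell by 3.33 and 3.31 at low and unequal levels in N2 (2.15 and 0.758 CPM for ilys-2, 1.87 and 0.535 CPM for ilys-3). Neither was called without N2 replicate 1 (-2.40 and -2.15, adjusted p = 0.276 and 0.175 in edgeR's quasi-likelihood test), and ilys-2 was also not called without 2KR replicate 1 or 3.

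Cuticle collagens gave the largest count of calls of any list. Of 132 tested genes 35 rose and 2 fell (28%, against 7.76% of all genes), with a median log2 fold change of 0.744 (0.625 in WT). rol-6 of the marker plasmid is one of the 35. None lay apart in 2KR, and 21 of the 37 were called in the same direction in WT. col-147 rose by 3.54 ± 0.47, from 1.64 and 0.892 CPM in N2 to 15.4, 10.9 and 17.7 CPM in 2KR, with WT at 11.1, 15.1 and 5.65 CPM (edgeR quasi-likelihood, adjusted p = 0.00216). col-117 and col-3, near-identical neighbours that may share reads, rose by 2.58 and 2.56. The abundant col-124 rose by 0.53 (adjusted p = 0.0027), from 1032 and 1034 CPM in N2 to 1456, 1568 and 1441 CPM in 2KR, and by 0.35 in WT. The sum over the 132 genes was 21653 and 22765 CPM in N2 and 22129 to 23970 CPM in 2KR, so the groups overlapped in the sum. Without N2 replicate 1 or 2, 4 or 7 members rose, and without 2KR replicate 2, 22.

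In the lists for other tissues, all of the called markers of neurons, muscle and hypodermis were higher in 2KR, a direction in which 3.76% of all genes were called. Among 30 neuron markers 4 rose (13.3%): the touch-neuron tubulin genes mec-7 (0.77) and mec-12 (0.80), the SNAP-25 gene ric-4 (0.67) and the vesicular acetylcholine transporter gene unc-17 (1.46), with a median of 0.405 over the list and of 0.272 in WT. No neuron marker was called without N2 replicate 1, 1 without N2 replicate 2 and 7 without 2KR replicate 1. Among 26 muscle markers 1 rose (3.85%), and none without either N2 library. Among 19 hypodermis markers 3 rose (15.8%), none without N2 replicate 1, 2 without N2 replicate 2 and 5 without 2KR replicate 1. Of 89 neuropeptide genes 3 rose and 2 fell (5.62%), with a median of 0.43, and none was called without either N2 library. Of 32 germline genes 1 rose and 1 fell (6.25%, against 7.76% of all genes). Of 32 oocyte and early embryo genes 2 fell (6.25%). Sperm genes mostly had negative values but few calls. Of 71 tested, 64 had a negative log2 fold change and the median was -0.892 (-0.459 in WT), yet only spe-6 was called, and it was higher (0.65, edgeR quasi-likelihood, adjusted p = 0.0495). That call was kept in 4 of 15 alternative fits and in none of those that left out a library. Their summed level was 359 and 317 CPM in N2, 365, 287 and 251 CPM in WT and 311, 267 and 253 CPM in 2KR. The part of sperm content in the results above was not tested.

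Lists of core cellular machinery differed in their shares. Of 33 proteasome subunit genes none was called in edgeR's quasi-likelihood test, and of 82 cytosolic ribosomal protein genes 1 rose and 1 fell (2.44%). Of 52 histone genes 2 rose and 7 fell (17.3%, against 7.76% of all genes), with a median of -0.089. Of the 7, 5 encode linker histones: his-24 (-1.20 ± 0.16, adjusted p = 0.00263), hil-1, hil-2, hil-3 and hil-8. his-24 was as low in WT (-1.09). With N2 replicate 1 or 2 left out, 1 or 3 histone genes fell and none rose, and 2 or 3 fell without any one of the 2KR libraries. Of 28 autophagy genes 4 fell (14.3%, against 4% of all genes lower; 1 and 2 without N2 replicates 1 and 2), among them the selective autophagy receptor gene sqst-1, which went from 48.0 and 47.3 CPM in N2 to 29.2, 29.8 and 31.8 CPM in 2KR (-0.66 ± 0.08, adjusted p = 0.00141), with WT between at 35.1 to 41.2 CPM. Of 18 genes of osmotic stress and trehalose 1 rose and 3 fell (22.2%, against 7.76% of all genes). The largest change among them was in hmit-1.1, a proton-coupled myo-inositol transporter gene, which fell by 2.08 ± 0.21 in 2KR and by 1.46 in WT.

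**Figure D5:**
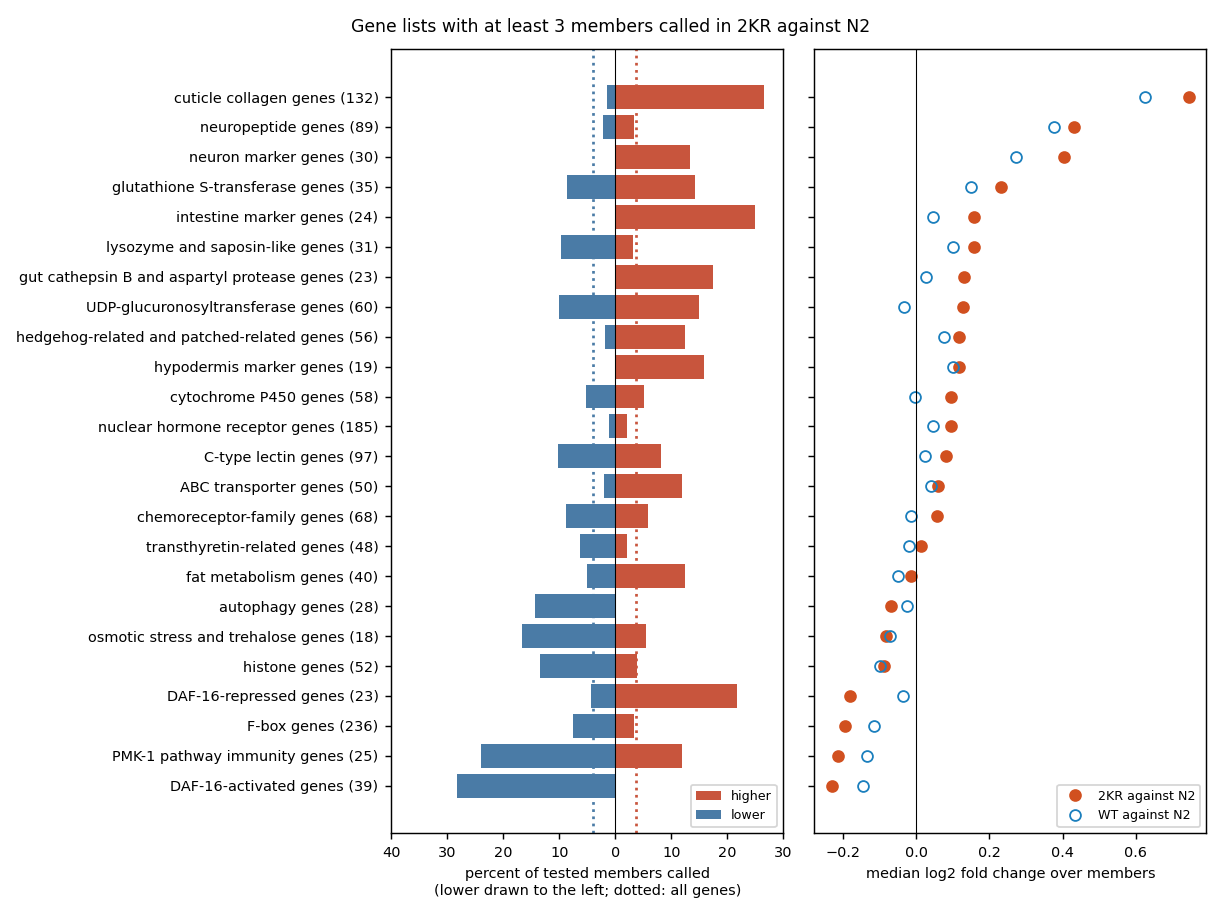
Left, percent of the tested members (number in brackets) of each gene list called higher (right of zero) or lower (left of zero) in 2KR against N2, with dotted lines at the shares over all genes, 3.76% and 4%. Right, median log2 fold change over the tested members in 2KR (filled) and WT (open) against N2; only lists with at least 3 called members are drawn, and cuticle collagens have the highest median, DAF-16-activated genes the lowest.

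Most of the largest changes against N2 among genes of moderate level were shared with WT. Of the 8 highest and 8 lowest called genes of that level, 13 were called in the same direction in WT, and T26C12.1, swt-3 and col-107 were not. Y106G6G.2 stood at 47.0 and 45.0 CPM in N2 and at 0.653, 0.694 and 0.959 CPM in 2KR, 59.6-fold lower (-5.90 ± 0.19, edgeR quasi-likelihood, adjusted p = 7.68e-08), with WT at -5.99. It opens a run of 4 neighbouring tested genes on chromosome I, all lower in both lines. T20F10.5 (-3.42) and bgal-2 (-3.31), which resembles beta-galactosidases, were also lower in both. The ABC transporter gene haf-6 rose from 6.82 and 7.22 CPM in N2 to 39.1, 38.9 and 35.8 CPM in 2KR (2.43 ± 0.09, adjusted p = 2.40e-07), and WT was at 2.40. D1086.1 rose by 3.86 in 2KR and by 3.85 in WT. In all, 26 runs of at least 3 neighbouring tested genes were called in 1 direction. In 2 of them no member was called in WT, the run of F58G6.9, F58G6.3 and F58G6.7 and that of mec-3, ugt-43 and ugt-44, which was lower.

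For other strong decreases the lines were not called different although their levels stood apart. swt-3, a SWEET-family sugar transporter gene, had 28.1 and 28.0 CPM in N2, 20.2, 7.05 and 17.7 CPM in WT, and 3.72, 5.30 and 3.84 CPM in 2KR. Every 2KR library lay below every WT library, and WT replicate 2 was the nearest to 2KR. Its log2 fold change was -2.71 ± 0.35 in 2KR (edgeR quasi-likelihood, adjusted p = 0.00187) and -0.90 in WT (adjusted p = 0.159), and the difference between the lines was -1.81 (adjusted p = 0.0748). fmo-2, a flavin-containing monooxygenase gene, had 30.3 and 8.92 CPM in N2, 3.21, 0.675 and 3.79 CPM in WT, and 0.392, 0.219 and 1.14 CPM in 2KR. N2 replicate 1 was far above N2 replicate 2, and without it the decrease of -5.06 was no longer called (adjusted p = 0.0587). In the other direction, fbxa-192, an F-box gene, was lower in both lines but less so in 2KR: 24.8 and 24.3 CPM in N2, 4.13, 3.07 and 5.05 CPM in WT, and 8.62, 8.80 and 8.13 CPM in 2KR. Here 2KR exceeded WT by 1.06 (adjusted p = 0.0213).

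Many calls of the genes named here did not hold with 1 of the 2 N2 libraries left out, which leaves N2 without a replicate. Beside the losses given above, the calls of asp-13, cpr-3, elo-2, fat-5, fat-7, lbp-6, F55G11.2, F58G6.7, mec-7, rhr-1 and unc-17 against N2 were lost without either N2 library. Those of act-5, elo-5, mec-12, col-3 and col-117 were lost without N2 replicate 1 alone, and that of dod-24 without N2 replicate 2 alone. acox-1 and F58G6.9 lost theirs without either N2 library, 2KR replicate 2 or 2KR replicate 3, and ric-4 without any of these or WT replicate 3.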

How the data were processed

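The tools named per the submitters' processing notes are Trimmomatic 0.32, TopHat2 2.1.0 and DESeq2 1.14.1. The sources used here do not give the build, annotation, counter or strand setting. Each deposited file gives 1 library's raw count per gene for 47084 genes, and beside it the authors' CPM, which was not used in any test. Positions come from Ensembl 115 (WBcel235), joined by gene identifier for 46474 genes, and 349 genes without a name keep their identifier. The 3 files of 4KR were left out because an earlier look at these data found their counts out of step with their gene names.

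From the counts, 1 model was fitted to 8 libraries with a term per group (edgeR 4.0.16, limma 3.58.1, R 4.3.3): TMM scaling, filterByExpr, quasi-likelihood tests for the 3 contrasts, and Benjamini-Hochberg adjustment over 14361 genes. SE is the absolute log2 fold change over the root of F. CPM values printed are TMM-scaled, and intervals and floors (3 counts) cover counting error only. The fit was checked on simulated counts. DESeq2 1.42.0 was an alternative. Plots used Python 3.11.15, pandas 2.3.3, NumPy 2.4.6 and matplotlib 3.10.9.

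The comparison, the classes and the 44 gene lists were chosen with earlier results of these data known, the lists being written from general knowledge of the genes. Genes named by rule are daf-16, rol-6, all genes apart in 2KR and their neighbours, the 8 highest and 8 lowest called genes whose groups do not overlap (average log2 CPM 2 or more), the 6 intermediate genes of smallest p in each direction, up to 4 called genes of smallest p per list and 10 DAF-16 targets. Other names (among them gcy-23, W08E12.8, T26C12.3, M4.1, W08E12.7, catp-3, nlp-40 and further list members) were chosen after their values were seen. Same-numbered WT and 2KR libraries deviated together from their group means (correlations 0.394, 0.381 and 0.287 for numbers 1, 2 and 3), so the numbers pair these groups. The main fit has no term for this pairing. For N2 and 2KR the numbers were shared by only 2 pairs, and no pairing was established. Alternatives covered scaling, tool, count filter, libraries in the fit, replicate block, a fold limit, the limit of nearness and each left-out library. Promoter and protein sequences were not used here.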

Additional observations from a re-analysis of the deposited data

How the results depend on the processing

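Called genes in 2KR against N2 (1114) were 1221 with DESeq2, 1539 without a count filter and 1136 with N2 and 2KR alone. Genes apart in 2KR (20) were 42 with DESeq2, 46 without a filter and 12 with WT held within 0.3, and genes called in 2KR against WT (35) were 95 with DESeq2 and 99 without a filter. Without a filter the higher genes (540) were 873, those called in WT against N2 (584) 911 and those called in both lines (484) 728. At a log2 fold change of at least 1 the counts were 405 called, 154 higher, 251 lower, 3 apart, 14 intermediate, 216 in both lines, 238 in WT against N2 and 13 between the lines. The cause of these shifts was not tested, except that a fold limit keeps fewer genes.

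With a replicate block by title number, which is not established for N2, the counts were 2695 called, 1326 higher, 1369 lower, 81 apart, 866 intermediate, 1448 in both lines, 1794 in WT against N2 and 221 between the lines. With a replicate block by file tag they were 2457, 1236, 1221, 149, 883, 1145, 1455 and 319. With the first block amt-1, lys-7 and Y67D8A.10 gained a call, with the second lys-7 and Y67D8A.10. Both kept all 1114 calls, with 19 and 18 of the 20 genes apart.

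Leaving out each library in turn gave 162 to 1348 called, 70 to 696 higher, 92 to 652 lower, 5 to 71 apart, 24 to 627 intermediate, 86 to 408 in both lines, 101 to 616 in WT against N2 and 7 to 124 between the lines. A lone N2 library is assumed to vary like the other groups.

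For single genes, values of 2KR against N2 for the 175 genes named by rule were pooled with 2KR against WT for the 20 genes apart. Of these values 2479 kept direction and side of the threshold, with or without a call, 398 lost and 21 gained a call, and 5 reversed. The 5 were all of genes without a call: C05E11.6 (-0.29 to 0.05 over the left-out libraries), hsp-12.6 (-0.42 to 0.16), sod-3 (-0.07 to 0.17, and -0.02 with the replicate block by title) and T05A12.3 (-0.18 to 0.03). Depth limits the genes of few counts, such as W08E12.8 and Y67D8A.9.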
